A study of Mus musculus with 4 samples.

Results

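The Hox genes of the mouse lie in 4 clusters, and the H3K4me3 peaks of primary macrophages over these clusters are described here. All peaks of the 4 deposited lists that touched a cluster window in mm9 were taken. The windows were 120 kb on chromosome 6 from 52100000 to 52220000 (HoxA), 185 kb on chromosome 11 from 96050000 to 96235000 (HoxB), 135 kb on chromosome 15 from 102740000 to 102875000 (HoxC) and 130 kb on chromosome 2 from 74490000 to 74620000 (HoxD). Joined where they overlapped, the peaks gave 15 regions of the 18786 in all. These regions held 50 of the 64314 peaks.

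H3K4me3, the trimethylation of histone H3 on lysine 4, was mapped by chromatin immunoprecipitation and sequencing in macrophages grown from bone marrow for 7 days. One genotype was Wbp7+/- and the other Wbp7-/-, each untreated or given LPS, a component of bacterial cell walls, at 10 ug/ml. The LPS time is 4 h by the labels, but the track line of the LPS-treated Wbp7+/- list names 24 h, so its time is uncertain. All groups shared a mixed strain background of 94% C57BL/6 and 6% 129/Ola. Each of the 4 groups was 1 library, the controls lacked 1 copy of Wbp7, and no library from Wbp7+/+ cells was used here. The labels do not say how Wbp7 was inactivated, nor how many mice or cultures gave each library. Differences between lists are therefore descriptions without a replicate check, and no test was run. The cell type of the labels was not checked against marker genes, since no gene positions in mm9 were used.

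Hox genes encode homeodomain transcription factors that set position along the body axis, and neighbouring genes of a cluster are transcribed in the same direction. Hoxa7, Hoxa9 and Hoxa10 are active in blood stem and progenitor cells and are turned down as myeloid cells mature. Hoxb4 is known for expanding blood stem cells, whereas Hoxa13 and Hoxd13 pattern the limbs and the hind end of the embryo. Wbp7, also named Kmt2b and given as MLL2 or MLL4 in the labels, is a histone H3 lysine 4 methyltransferase. Its close relative Kmt2a is a known activator of Hox genes. H3K4me3 usually sits at CpG-rich promoters.

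The gene table was of GRCm38, so no gene could be placed at a peak, and genes are named here by cluster and order only. In GRCm38 the order from low to high coordinates is Hoxa2 to Hoxa13, Hoxb13 to Hoxb1, Hoxc13 to Hoxc4 and Hoxd13 to Hoxd1. The same orientation was taken for mm9. The list of Hox genes considered held 10 genes in HoxA, 10 in HoxB, 9 in HoxC and 9 in HoxD.

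To show the kind of sequence these clusters carry, the 250 bases before the start of 4 genes are given from RefSeq (GRCm38.p6), 5′ to 3′ on the strand of the gene, with each CpG in capitals. Hoxa9 (minus strand) and Hoxd9 (plus strand) are paralogues, as are Hoxb4 and Hoxc4 (both plus strand). In each pair the first gene is from a cluster with peaks in all 4 lists and the second from a cluster without.
Hoxa9: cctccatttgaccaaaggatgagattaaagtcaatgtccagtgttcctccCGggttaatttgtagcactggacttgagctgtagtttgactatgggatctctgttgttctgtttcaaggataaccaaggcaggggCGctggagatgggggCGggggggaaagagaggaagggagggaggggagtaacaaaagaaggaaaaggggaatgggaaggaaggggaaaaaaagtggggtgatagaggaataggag
Hoxd9: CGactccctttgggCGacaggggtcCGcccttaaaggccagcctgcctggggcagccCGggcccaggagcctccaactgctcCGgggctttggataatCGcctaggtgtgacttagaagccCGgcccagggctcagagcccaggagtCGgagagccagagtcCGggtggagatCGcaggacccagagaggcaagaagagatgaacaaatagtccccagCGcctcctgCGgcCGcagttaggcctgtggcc
Hoxb4: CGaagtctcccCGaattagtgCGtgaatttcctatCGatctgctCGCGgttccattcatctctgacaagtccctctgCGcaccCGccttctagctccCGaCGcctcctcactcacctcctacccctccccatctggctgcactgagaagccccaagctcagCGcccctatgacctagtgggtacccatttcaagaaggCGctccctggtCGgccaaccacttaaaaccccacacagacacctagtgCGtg
Hoxc4: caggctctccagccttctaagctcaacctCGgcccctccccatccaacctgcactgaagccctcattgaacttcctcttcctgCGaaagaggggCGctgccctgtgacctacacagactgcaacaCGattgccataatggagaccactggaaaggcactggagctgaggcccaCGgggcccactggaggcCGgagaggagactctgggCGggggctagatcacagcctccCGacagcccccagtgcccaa

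These stretches held 3 CpG for Hoxa9, 13 for Hoxd9, 14 for Hoxb4 and 8 for Hoxc4. The gene of the cluster with shared peaks had fewer CpG in the first pair and more in the second. Of the 38 genes, 22 had a promoter of 300 bases in the table, running from 250 bases before to 50 after the start. Their 24 promoters held 4 to 45 CpG with a median of 14.5, against a median of 7 over all 32851 promoters. The letters CG are the same on both strands. HoxA promoters had a median of 17.5 CpG (10 promoters of 9 genes) and HoxD promoters a median of 20 (10 promoters of 9 genes). Hoxa13 had the most of the HoxA cluster, 45, and 1.93% of all promoters held as many or more. Hoxd13 had the most of HoxD, 37, with 5.58% of all promoters at or above it. At the other end, Hoxa9 had 4 and Hoxd4 had 4, and 68.6% of all promoters held as many or more. HoxB was covered by Hoxb1 (10), Hoxb4 (14) and Hoxb8 (13) and HoxC by Hoxc4 alone (9). Since no promoter was placed at a peak and HoxB and HoxC had 3 and 1 promoters, these numbers describe the sequences only, and their relation to the peaks was not tested.

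The clusters fell into a pair with peaks shared by all 4 lists and a pair with weak peaks in Wbp7+/- lists alone. The shared regions were not all strong. In untreated Wbp7+/- cells HoxA region 7 scored 290.07 and HoxD region 2 scored 250.85. HoxA held 8 regions, 6 of them with a peak in all 4 lists, and HoxB held 3, all in all 4 lists. HoxC and HoxD held 2 regions each, and none of these 4 had a Wbp7-/- peak. Over the 4 clusters, 9 of 15 regions (60%, 95% Wilson interval 35.7 to 80.2) were in all 4 lists, beside a background of 65.4% over all regions. The interval covers counting error over regions only.

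**Figure D1:**
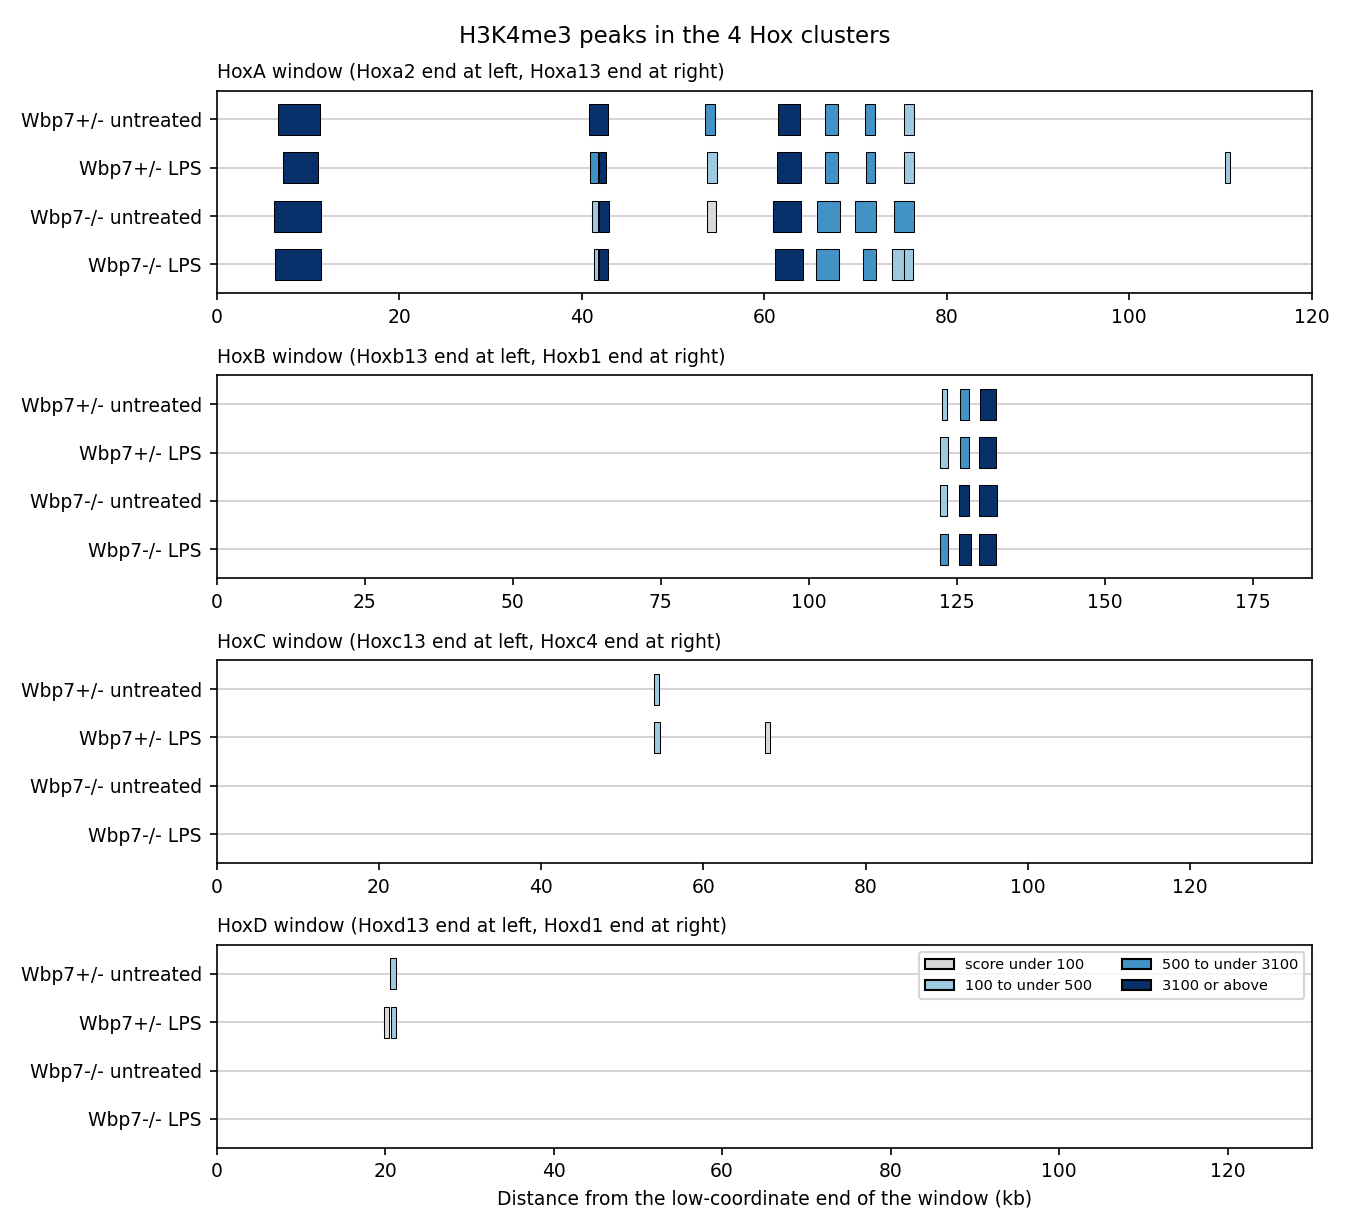
Peaks of the 4 lists along the 4 Hox windows, with the distance from the low-coordinate end of each window in kb on the horizontal axis and 1 row per library. Box colour gives the class of the caller's score. HoxA peaks lie between 6.3 and 76.5 kb, apart from 1 weak peak at 110.5 kb, HoxB peaks form 1 group starting at 122.2 kb, and HoxC and HoxD have peaks in the Wbp7+/- rows alone.

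HoxA carried the most H3K4me3. Its peaks covered 13636 bp in untreated Wbp7+/- cells, 13371 bp in LPS-treated Wbp7+/- cells, 17930 bp in untreated Wbp7-/- cells and 15883 bp in LPS-treated Wbp7-/- cells. Both Wbp7-/- values lay above both Wbp7+/- values. As shares of the window these were 11.4, 11.1, 14.9 and 13.2%. In HoxB the covered lengths were 5139, 5768, 6023 and 6228 bp in the same order, or 2.78 to 3.37% of the window. Here too the Wbp7-/- values were the higher ones, by a smaller margin. In Wbp7+/- cells, HoxC peaks covered 618 bp without and 1396 bp with LPS, and HoxD peaks 698 and 1172 bp. Both clusters had 0 bp in each Wbp7-/- list.

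**Figure D2:**
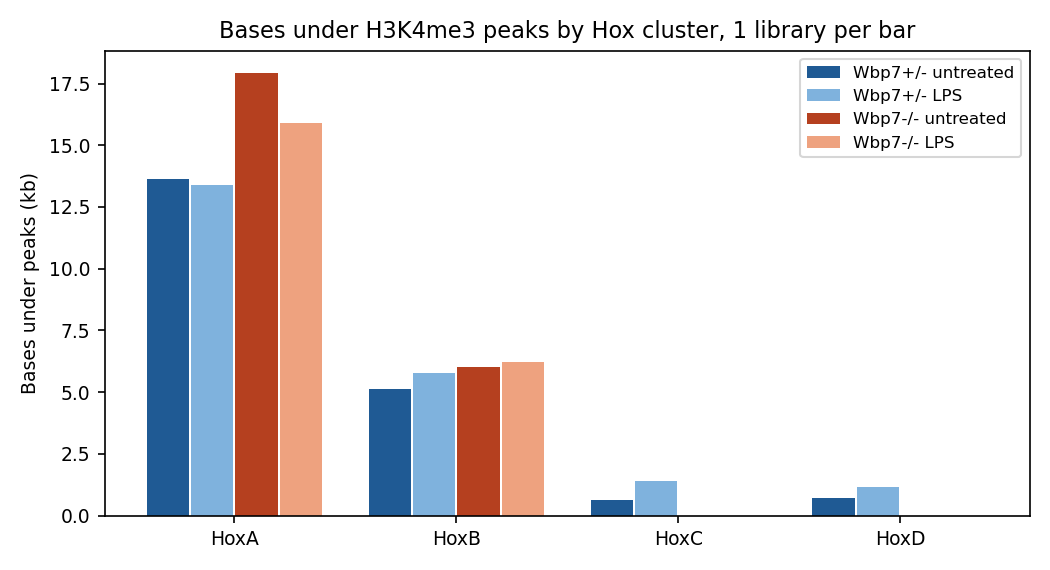
Bases under H3K4me3 peaks (kb, vertical axis from 0) in each Hox cluster, with 1 bar per library and no error bars because each group is 1 library. HoxA reaches 17930 bp in untreated Wbp7-/- cells, and HoxC and HoxD have no bar for Wbp7-/- cells.

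Set between genotypes, the covered length of HoxA in Wbp7-/- cells was 131% of that in Wbp7+/- cells untreated and 119% after LPS. For HoxB it was 117 and 108%. Over all peaks of the lists the values were 97.0 and 97.1%, and over regions present in all 4 lists 102 and 103%. Over the 4 clusters together, covered length in Wbp7-/- cells was 119% of Wbp7+/- untreated and 102% after LPS. For the 9 Hox regions in all 4 lists it was 129 and 127%. Read numbers are unknown, and covered length depends on depth as well as on the mark. A mark present in more cells and a wider mark per cell cannot be told apart in bulk chromatin.

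The HoxA regions are numbered from the Hoxa2 end. Region 1, from 52106342 to 52111460, was the widest of the 15. Its Wbp7+/- peaks measured 4596 bp (untreated) and 3780 bp (LPS), and its Wbp7-/- peaks 5119 and 4993 bp. Both Wbp7-/- widths lay above both Wbp7+/- widths, but the share of all regions with this order was not counted. Region 1 stood at the score ceiling of 3100 in all 4 lists, the value at which the caller's scores pile up. Between 89.0 and 95.7% of the regions of each list were narrower.

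After a gap of 29.4 kb came region 2, from 52140853 to 52142962. Peaks covered 2015 and 1667 bp in untreated and LPS-treated Wbp7+/- cells and 1738 and 1512 bp in Wbp7-/- cells. This was the one shared Hox region that was narrower in Wbp7-/- cells in both treatments, with width ratios of 0.863 and 0.907. It was also split in a way that followed neither genotype nor treatment. A single peak was listed in untreated Wbp7+/- cells, and a pair of peaks in each of the other lists, separated by 89 bp in LPS-treated Wbp7+/- cells, 131 bp in untreated Wbp7-/- cells and 87 bp in LPS-treated Wbp7-/- cells. The highest score in the region was at the ceiling in every list.

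Region 3, from 52153532 to 52154867, was present in every list but that of LPS-treated Wbp7-/- cells. Its peak was 1031 bp wide with a score of 503.79 in untreated Wbp7+/- cells and 1117 bp with 299.23 after LPS. In untreated Wbp7-/- cells it was 1016 bp wide with a score of 80.24, and 7.27% of the peaks of that list scored lower. Such a pattern was found at 1 of 15 Hox regions and at 1.3% of all regions.

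Regions 4 to 7 formed a group in which neighbours lay 1.4 to 1.7 kb apart. Region 4, from 52160953 to 52164254, was at the ceiling in all 4 lists, with peaks of 2378 and 2654 bp in Wbp7+/- cells and 3128 and 3061 bp in Wbp7-/- cells. The width ratio was 1.32 untreated and 1.15 after LPS. The next 3 regions were under the ceiling throughout.

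Region 5, from 52165659 to 52168274, had peaks of 1464 and 1426 bp in Wbp7+/- cells and 2471 and 2533 bp in Wbp7-/- cells. Its scores were 707.86 and 855.68 in Wbp7+/- and 939.66 and 565.76 in Wbp7-/- cells, with no order by genotype. Region 6, from 52170005 to 52172259, had peaks of 1094 and 1072 bp in Wbp7+/- cells against 2255 and 1422 bp in Wbp7-/- cells. Its scores were 2384.45 and 2034.95 in Wbp7+/- and 1368.6 and 1276.82 in Wbp7-/- cells. Between genotypes the wider peaks had the lower scores, whereas within each genotype the wider peak had the higher score.

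Region 7, from 52173974 to 52176463, covered 1058 and 1087 bp in Wbp7+/- cells and 2203 and 2362 bp in Wbp7-/- cells. The second Wbp7-/- value was the sum of a pair of peaks 11 bp apart. Scores were 290.07 and 369.46 in Wbp7+/- and 765.6 and 448.56 in Wbp7-/- cells. Scores grow with the depth of a library, which is unknown, so they rank peaks within a list and measure no change between lists.

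Past region 7 the HoxA window had no peak for 34.0 kb. Region 8, from 52210488 to 52211055 towards the Hoxa13 end, was a single peak of 568 bp with a score of 100.26 in LPS-treated Wbp7+/- cells. The other lists had none there.

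The HoxB regions lay within 9.6 kb, with 122.2 kb of the window empty on the Hoxb13 side and 53.2 kb empty on the Hoxb1 side. Region 1, from 96172165 to 96173637, had peaks of 1000 and 1275 bp in Wbp7+/- cells and 1273 and 1473 bp in Wbp7-/- cells, and the genotypes overlapped. Its scores, 368 and 426.64 in Wbp7+/- and 440.2 and 572.53 in Wbp7-/- cells, were the lowest of the 3.

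Region 2 of HoxB, from 96175409 to 96177361, had peaks of 1427 and 1623 bp in Wbp7+/- cells and 1771 and 1897 bp in Wbp7-/- cells. Scores were 2446.16 and 2916.43 in Wbp7+/- cells and at the ceiling in both Wbp7-/- lists. Region 3, from 96178835 to 96181813, was at the ceiling in every list with 2712 and 2870 bp in Wbp7+/- and 2979 and 2858 bp in Wbp7-/- cells. It was the widest of HoxB and differed least between the lists.

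**Figure D3:**
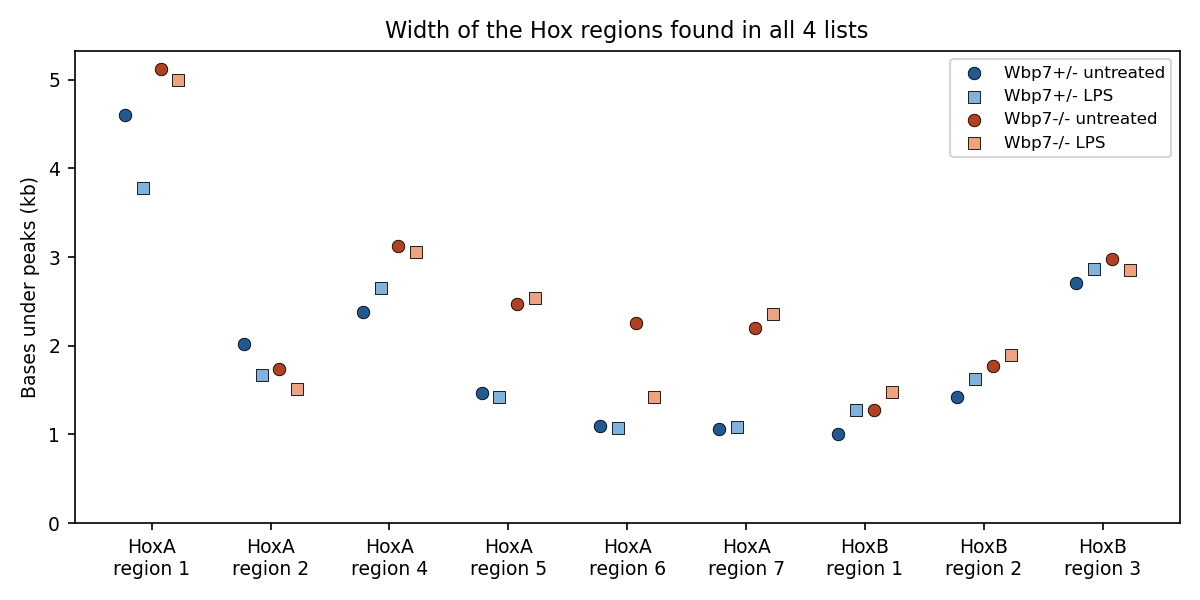
Bases under peaks (kb, vertical axis from 0) of the 9 Hox regions found in all 4 lists, with circles for untreated and squares for LPS-treated libraries and 1 point per library. At HoxA regions 5 and 7 the widths were 1058 to 1464 bp in Wbp7+/- and 2203 to 2533 bp in Wbp7-/- cells. Both Wbp7-/- points also lie above both Wbp7+/- points at HoxA regions 1, 4 and 6 and HoxB region 2. The share of all regions with this order was not counted.

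Widths were next compared region by region with the rest of the genome. Of the 9 Hox regions in all 4 lists, 8 were wider in Wbp7-/- cells untreated and 7 after LPS, by any amount, against 62.0% of all such regions in each treatment. At least 1.5-fold wider in Wbp7-/- cells were 3 of 9 untreated (HoxA regions 5, 6 and 7, background 2.95%) and 2 of 9 after LPS (HoxA regions 5 and 7, background 3.86%). Both treatments together gave 2 of 9 (22.2%, 6.32 to 54.7), beside 1.26% of all 12294 regions. The interval treats regions as independent, although HoxA regions 5 and 7 lie in the same cluster and were measured in the same libraries. Narrower by at least 1.5-fold in both treatments were 0 of 9, beside 2.11%. Weaker regions vary more in width: of the 2444 regions under the ceiling in all 4 lists, 3.93% were at least 1.5-fold wider in Wbp7-/- cells in both treatments. In that class, 8.67% passed untreated and 11.9% after LPS. Of the 4 Hox regions in that class, 3 passed untreated and 2 after LPS.

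The ratios of the 3 HoxA regions stood near the upper end of all regions. Region 7 had 2.08 untreated and 2.17 after LPS, and 99.5 and 99.2% of the regions in all 4 lists had lower ratios. For region 5 the ratios were 1.69 and 1.78, with 98.5 and 98.1% lower. Region 6 had 2.06 untreated, with 99.4% lower, but 1.33 after LPS, with 91.3% lower. Below the 1.5-fold threshold, the next ratios were 1.33 in region 6 after LPS and 1.32 in region 4 untreated and region 1 after LPS. In HoxB the ratios ran from 0.996 to 1.27. The median over all regions was 1.03 untreated and 1.04 after LPS, and over the 9 Hox regions 1.27 and 1.17.

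**Figure D4:**
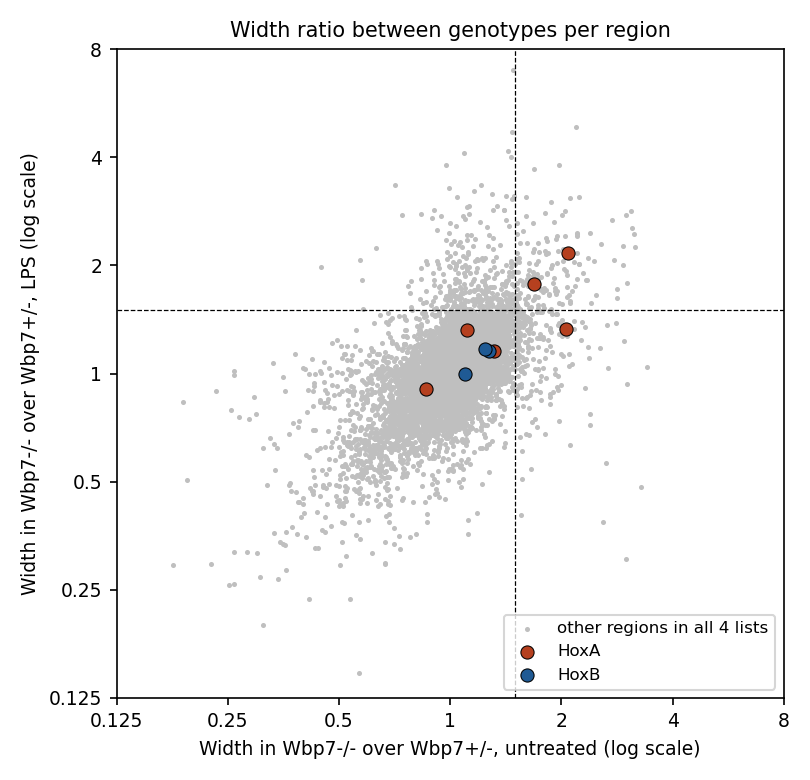
Width in Wbp7-/- over Wbp7+/- cells, untreated (horizontal) against LPS-treated (vertical), both on log scales, for the 12294 regions in all 4 lists, with dashed lines at 1.5. HoxA regions 5 and 7 lie beyond both lines, region 6 beyond the untreated line alone, and the HoxB regions lie within the main cloud.

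At HoxA regions 1, 5, 6 and 7 and at HoxB region 1 most of the added width lay on the low-coordinate side in both treatments. The share of all regions with this pattern was not counted. For HoxB region 1 the low edge lay 265 bp and the high edge 8 bp further out untreated, and 121 and 77 bp after LPS. HoxB region 2 had 217 and 127 bp untreated but 97 and 177 bp after LPS. HoxB region 3 had 118 and 149 bp untreated, and after LPS its edges lay 3 and 9 bp further in. In untreated cells the low-coordinate edge of HoxA regions 5, 6 and 7 lay 833, 1066 and 1089 bp further out in Wbp7-/- than in Wbp7+/- cells. The high-coordinate edge lay 174, 95 and 56 bp further out. After LPS the low edges were 1026, 311 and 1403 bp further out, and the high edges 81 and 39 bp further out and, for region 7, 117 bp further in. Over all regions in all 4 lists the untreated low edge moved out by a median of 29 bp, with a 95th percentile of 428 bp. Of the 363 regions at least 1.5-fold wider untreated, 55.4% had 80% or more of the growth on 1 side, and 27.5% had it on the low side. RefSeq gives the HoxA promoters on the minus strand in GRCm38, so the low side is the direction of transcription of the Hoxa genes. The promoters of Hoxb1, Hoxb4 and Hoxb8 are on the plus strand, so at HoxB region 1 the low side is the opposite direction. No gene was placed at a peak, and a relation of the edge shifts to transcription was not tested. For region 1 the low edge lay 419 bp and the high edge 104 bp further out untreated, and 881 and 332 bp after LPS, where the 95th percentile of the low-edge shift was 501 bp. Region 4 showed the same side untreated, with 594 bp at the low and 156 bp at the high edge, but not after LPS, with 177 and 230 bp. In region 2 the low edge lay further in without Wbp7, by 241 bp untreated and 357 bp after LPS.

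**Figure D5:**
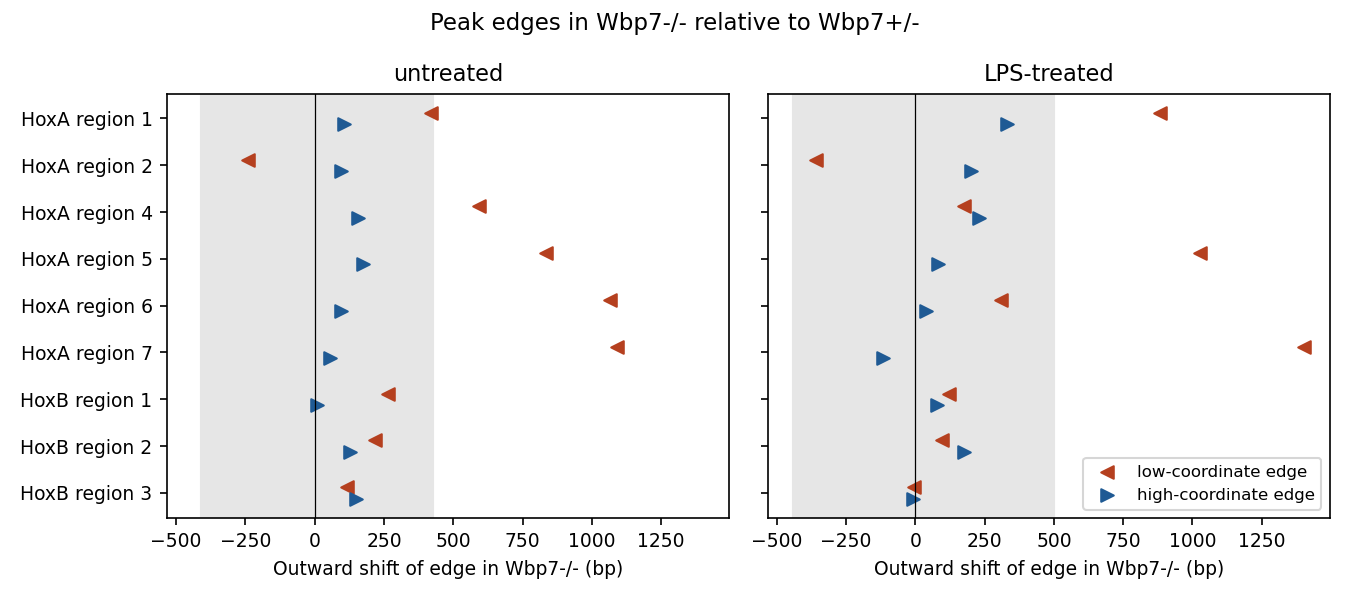
Outward shift of each peak edge in Wbp7-/- relative to Wbp7+/- cells (bp, horizontal axis) for the 9 Hox regions in all 4 lists, untreated and LPS-treated. Triangles pointing left are low-coordinate and those pointing right high-coordinate edges, and the grey band holds the 5th to 95th percentile of the low-edge shift over all regions. The low edges of HoxA regions 5 and 7 lie outside the band in both treatments, those of regions 4 and 6 in untreated cells and that of region 1 after LPS.

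HoxC and HoxD had narrow, low-scoring peaks. HoxC region 1, from 102793931 to 102794722, measured 618 bp with a score of 134.75 in untreated and 792 bp with 201.79 in LPS-treated Wbp7+/- cells. HoxC region 2, from 102807569 to 102808172, was a peak of 604 bp in LPS-treated Wbp7+/- cells with a score of 51.15, and 0.387% of the peaks of that list scored lower. The nearest regions found in all 4 lists lay 181.5 kb and 240.8 kb from HoxC region 1, outside the window.

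HoxD region 2, from 74510636 to 74511333 towards the Hoxd13 end, measured 698 bp with a score of 250.85 in untreated and 507 bp with 243.92 in LPS-treated Wbp7+/- cells. HoxD region 1, from 74509828 to 74510492, lay 143 bp away and was a peak of 665 bp with a score of 92.36 in LPS-treated Wbp7+/- cells. The remaining 108.7 kb of the window, towards Hoxd1, had no peak in any list.

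Presence in the Wbp7+/- pair of lists with absence from the Wbp7-/- pair was thus found at 2 of 15 Hox regions (13.3%, 3.74 to 37.9), beside 10.9% of all regions, a share close to the background. With each list kept to its 14599 highest-scoring peaks, the number was 1. With only peaks scoring at least 100 it was 3, as the untreated Wbp7-/- peak of HoxA region 3 scored 80.24. The reverse was found at 0 of 15, beside 2.07%. Regions of this strength were often missing from Wbp7-/- lists. Of the 2664 untreated Wbp7+/- regions scoring 100 to under 500, 49.2% had an untreated Wbp7-/- peak, and of the 2765 after LPS, 50.9% had an LPS-treated Wbp7-/- peak. An absent peak means that the caller's threshold was not passed, and not that the mark was absent.

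Hox regions in all 4 lists had similar covered lengths with and without LPS. The covered length of the 9 regions after LPS was 98.4% of untreated in Wbp7+/- and 96.4% in Wbp7-/- cells, beside 99.7 and 100% over all regions in all 4 lists. HoxA region 6 in Wbp7-/- cells had the lowest ratio, with 0.631 of the untreated width. Peaks seen with LPS in Wbp7+/- cells and nowhere else made up 3 of 15 regions (20%, 7.05 to 45.2), beside 5.2% of all regions. The scores of these 3 were 100.26 in HoxA, 51.15 in HoxC and 92.36 in HoxD, and the lowest score of that list was 50.03. HoxD region 1 lay 143 bp from HoxD region 2, which had peaks in both Wbp7+/- lists. It counted apart because the peaks did not overlap, and the count was not repeated under the other settings. All 3 come from the list whose LPS time is uncertain, and the part that time or depth plays in them was not tested. No Hox region without a peak in untreated Wbp7-/- cells had an LPS-treated Wbp7-/- peak. Such regions were weak, with scores of 51.15 to 250.85 in the Wbp7+/- lists, and the same share over all regions was not counted.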

How the data were processed

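H3K4me3 ChIP-seq was deposited as 1 peak list for each of 4 libraries, with 1 library per group. Reads were aligned with Bowtie to mm9, per the submitters' processing notes, and peaks were called with MACS in each library, per the file headers. The score of each peak was deposited by the authors as the caller wrote it. No source used here gives versions, thresholds or read numbers, so depth is unknown. Scores pile up at 3100, here called the ceiling, where they can no longer rank peaks.

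Groups came from the sample titles. Peaks overlapping by 1 bp or more were joined into regions, and bedtools 2.31.1 gave the same 18786 regions. Width is the sum of peak bases of a list in a region, and a peak touching a window was counted whole. Width ratios of 1.5 or more were counted. Every region in a window was described, by a rule that asked for full values for the widest region of each cluster and for all regions absent from a list, under the ceiling or past 1.5-fold. Intervals are 95% Wilson intervals. Joining and width counts were tested on simulated lists of widely separated, unsplit peaks. That test does not cover closely spaced or split peaks such as those in HoxA and HoxD. The windows, genes and comparisons were chosen with earlier results of these data known, and the count of wider regions, the edge shifts and the promoter CpG counts were added after the data were seen. A planned list of Hox partner genes was not analysed here, since no gene positions in mm9 were used. Python 3.11.15, pandas 2.3.3, numpy 2.4.6, scipy 1.17.1 and matplotlib 3.10.9 were used.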

Additional observations from a re-analysis of the deposited data

Results flagged for a closer look

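Covered length moved in opposite ways with LPS in the 2 genotypes, and none of these differences was tested, since each group held 1 library. Over the 4 Hox clusters, covered length after LPS was 108% of untreated in Wbp7+/- and 92.3% in Wbp7-/- cells. With ceiling peaks alone the values were 86.4 and 98.4%, so both genotypes then had less covered length after LPS. Within clusters the directions were alike, with 98.1 and 88.6% in HoxA and 112 and 103% in HoxB. HoxC and HoxD added to the Wbp7+/- lists alone, with 226 and 168%. Of single regions, HoxA region 4 had 1.12 times its untreated width after LPS in Wbp7+/- and 0.979 times in Wbp7-/- cells. HoxA region 5 had 0.974 and 1.03 times, and HoxB region 3 had 1.06 and 0.959 times. Opposite directions were seen at 3 of 9 Hox regions in all 4 lists (33.3%) and at 35.9% of all such regions.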

How the results depend on the processing

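Other settings gave 50 values to set beside the main ones. Of these, 2 counts differed by more than 1.5-fold, 1 percentage reversed its direction, and 47 did neither. The 47 do not measure robustness, since some of them could not change. Keeping only what lies inside the windows had no effect, because the region nearest to a window edge lay 6.3 kb from it. Counts of 0 that remained 0 were also placed among the 47, and a count has no direction to keep. With each list kept to its 14599 highest-scoring peaks, regions in both Wbp7+/- lists only numbered 1 in place of 2, because this setting drops weak peaks from the longer lists. With only peaks scoring at least 100 they numbered 3, which was placed among the 47. At a width threshold of 2 in place of 1.5, 1 Hox region, HoxA region 7, was wider in both treatments in Wbp7-/- cells. With ceiling peaks alone, covered length after LPS in Wbp7+/- cells was 86.4% of untreated in place of 108%. Ceiling peaks there measured 4596 bp untreated and 3780 bp after LPS at HoxA region 1. The values were 2015 and 806 bp at HoxA region 2, where the other LPS peak, of 861 bp, scored 2059.44 and was left out. They were 2378 and 2654 bp at HoxA region 4 and 2712 and 2870 bp at HoxB region 3. The peaks of HoxC and HoxD, all under the ceiling, were left out too. Why the widths differed was not tested. Without the LPS-treated Wbp7+/- list, chosen after seeing the data, the counts were 9 in all remaining lists, 2 in Wbp7+/- only, 0 in Wbp7-/- only, 0 narrower and 2 wider. For these width counts both Wbp7-/- lists were set against the untreated Wbp7+/- list, so the LPS-treated one differs in genotype and treatment. No paired analysis was possible because each group held 1 library. The depth is unknown, which limits every statement on an absent peak or a peak's width.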

Other observations

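HoxA regions 5, 6 and 7 are consecutive among the regions in all 4 lists. Runs of 3 or more consecutive regions that were all at least 1.5-fold wider in untreated Wbp7-/- cells numbered 2 over the genome. With each gap at most 5 kb there was 1, the HoxA run. How many sets of 3 consecutive regions lay so close, whatever their width ratio, was not counted. After LPS there was 1 run over the genome, and 0 with such gaps. This pattern was chosen after its values were seen.

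Flanks of the same length on each side of the windows held few regions. The HoxA flanks held 0 regions on the low side and 1 on the high side, with peaks of 694 and 714 bp in the untreated and LPS-treated Wbp7+/- lists alone. The low flank of HoxB held 3 regions in all 4 lists and 1 in both Wbp7+/- lists only, and its high flank held 0. The high flank of HoxC held 2 regions in all 4 lists, 1 restricted to the Wbp7+/- pair of lists and 1 restricted to the Wbp7-/- pair, whereas its low flank held 0. Each flank of HoxD held 1 region, in all 4 lists, with 1622 to 2136 bp under peaks. Regions in all 4 lists were thus present on both sides of the HoxD window and not in it.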
